A study of Mus musculus with 8 samples.

Results

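Transcripts of 36 cell cycle and DNA replication genes were followed in mouse peritoneal macrophages, with and without lipopolysaccharide (LPS), the bacterial cell wall component that macrophages sense through TLR4. The genes form a chosen list of cyclins, kinases, kinase inhibitors, replication factors and mitotic genes, and every row of the expression table carrying 1 of those symbols was taken. All 36 were found among 23735 loci, and none of their loci carried a second symbol. The macrophages came from 8-week-old C57BL/6J mice. Control mice carried floxed Med1 (MED1fl/fl, labelled WT), and knockout mice lacked MED1 in macrophages (MED1ΔMac, labelled MED1-/- and called KO here). MED1 is a subunit of Mediator, the complex that links transcription factors to RNA polymerase. Cells of each genotype were left untreated or given LPS at 50 ng/mL for 6 h, which made 4 groups of 2 libraries, A and B. The strain, age and cell type were the same in all groups, and the promoter driving Cre was not given in the sources used here. Whether libraries A and B were from separate animals is not stated, so p-values measure only the spread between these libraries, which may be technical.

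A cell enters the cycle when D cyclins and then E cyclins activate their kinases, which release E2F factors from the retinoblastoma protein. E2F1 and its relatives switch on the genes that license, unwind and copy DNA, and a later program makes the cyclins and kinases of mitosis. Inhibitors of the p21 and INK4 families hold the kinases in check. Most macrophages of the resting peritoneum are not dividing, though they can renew themselves locally, and LPS is known as a signal that halts growth-factor-driven macrophage division.

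Values are RPKM, reads scaled to transcript length and to the mapped reads of the library, so that levels of different genes can be set side by side. The libraries held an estimated 7.0 to 14.4 M reads, so that a single read, over 1 kb of transcript, was worth 0.0697 to 0.143 RPKM. The macrophage genes Csf1r (249 to 948 RPKM) and Emr1 (277 to 709) were high in every library. The summed level of 13 of 14 macrophage markers was lower with LPS in each genotype and in KO under each treatment, at 32081 and 36249 RPKM untreated and 21454 and 19349 after LPS in WT, and 11690 and 18377 untreated and 8499 and 8810 after LPS in KO. Most of it was the lysozyme gene Lyz2 (4547 to 32317 RPKM). Without Lyz2, a split made after its values were seen, the sum was higher with LPS without overlap in each genotype. In WT it was 3493 and 3931 RPKM untreated and 4125 and 6119 after LPS. In KO it was 3187 and 3376 untreated and 3388 and 4263 after LPS. Of these 13 markers, Cd14 was called higher with LPS in both genotypes, and Fcgr1, Mertk and Gata6 lower in KO. The part of these shifts in the results on the cell cycle genes was not tested. Markers of other cells were present as well. The summed level of 10 of 10 B cell markers was 592 to 649 RPKM untreated and 429 to 630 after LPS in WT, and 591 and 1788 (A and B) untreated and 1041 to 1437 after LPS in KO, with no marker at 0 throughout. Med1 itself lay at 21.7 and 24.8 RPKM in untreated WT cells and 24.7 and 21.6 after LPS, and at 17.6 and 23.4 in the untreated libraries labelled KO and 24.4 and 20.3 in those given LPS. The groups overlapped. A value over the whole gene does not measure the loss of single exons, and which exons were deleted is not stated, so this level is no check on the labels.

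The members spanned a wide range of levels. Of the 36, 4 lay under 1 RPKM in at least 7 libraries: the E cyclin Ccne2 (0.0629 to 0.269 RPKM), the origin-licensing factor Cdc6 (0.0205 to 0.307), the mitotic kinase Plk1 (0.0887 to 0.665) and the checkpoint kinase Bub1 (0.043 to 0.528). An estimated 1.0 to 16.0 reads stood behind each of their values. These 4 did not reach the 1 RPKM in 2 libraries needed for testing, and the other 32 were tested. In all, 19 members stayed under 5 RPKM in every library, while 4 exceeded 10 RPKM in every library: the D cyclin Ccnd3, the inhibitors Cdkn1a and Cdkn1b, and Pcna, the sliding clamp of DNA polymerase. Transcripts of Cdkn1a, Cdkn1b and Pcna were thus abundant in libraries whose mitotic transcripts were scarce. The inhibitor Cdkn2c was lower, at 1.16 to 11.6 RPKM.

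The first comparison was LPS against no treatment in each genotype. After LPS, the kinase inhibitor gene Cdkn1a rose in both genotypes and Cdkn2c fell in both. Mki67, the classical marker of proliferating cells, was higher without overlap in both genotypes but was called only in KO. No difference in its response between the genotypes was called. Tests were made with limma on log2(RPKM + 1) over 11272 loci, with a call at a Benjamini-Hochberg adjusted p under 0.05. In WT, 1 of 32 members was called higher and 1 lower, where 3.17% of all loci tested were called higher and 3.14% lower. In KO, 2 members were called higher and 1 lower, where 3.31% of all loci were called in each direction. These shares of members lay near those of all loci. With the letter A or B added to the model as a replicate block, 3 members were higher and 2 lower in WT, against 5.71% and 10.4% of all loci. In KO 3 were higher and 3 lower, against 5.25% and 9.04%. Mki67 was then called higher in WT as well.

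**Figure D1:**
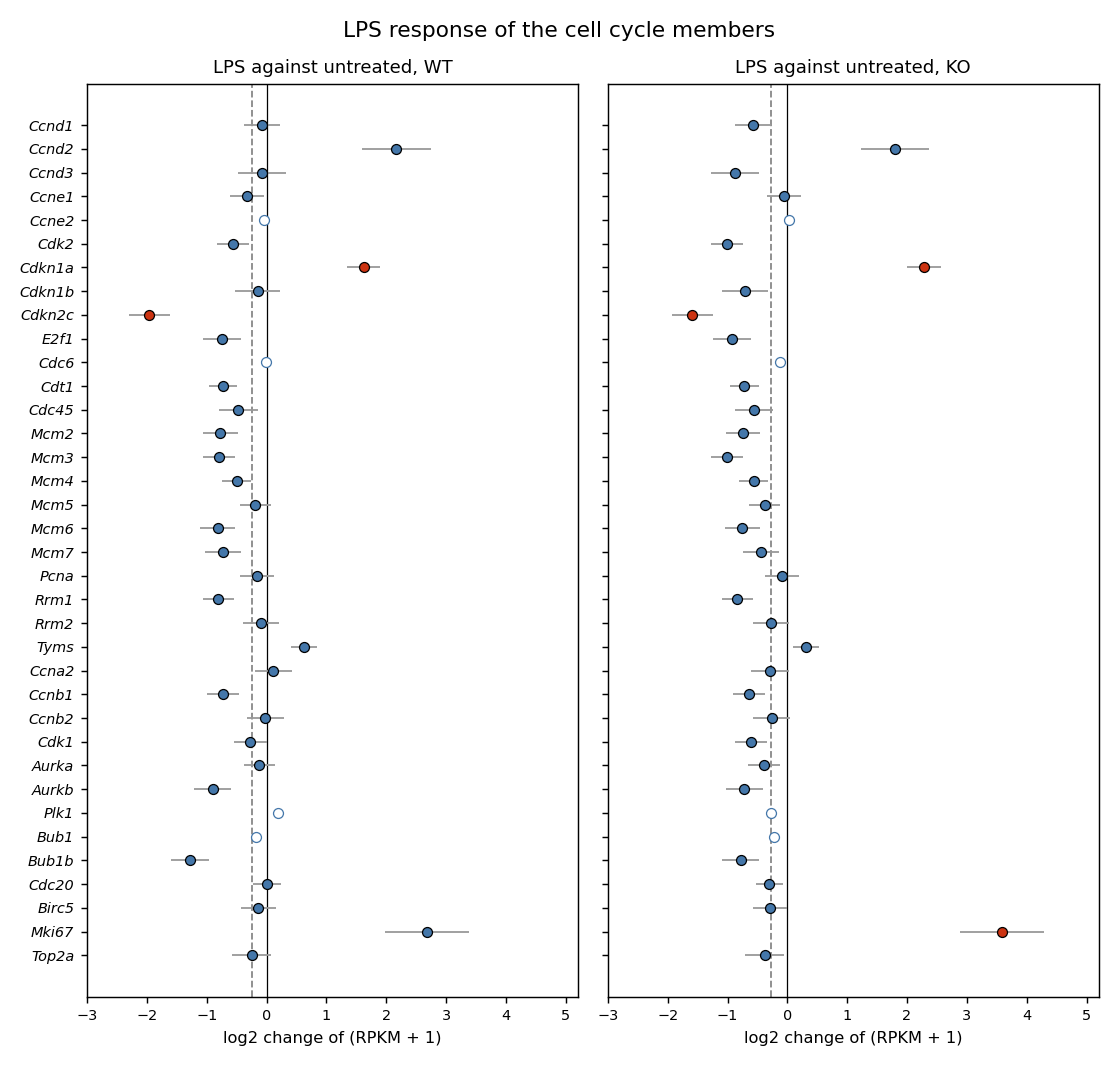
LPS response of the 36 members, as the log2 change of (RPKM + 1) in WT (left) and KO (right). Filled points are tested members with bars of 1 standard error, red points passed at adjusted p under 0.05, open points were under the filter, and the dashed line marks the median of all loci tested (-0.25 in WT, -0.28 in KO); Mki67, Ccnd2 and Cdkn1a lie far to the right, Cdkn2c far to the left, and most others close to or left of the dashed line.

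Most other members lay slightly lower after LPS, and so did most genes. Of the 36 members, 29 had a negative log2 change in WT (median -0.18) and 31 in KO (median -0.41). Among the 32 tested members, 26 had one in WT (median -0.26) and 28 in KO (median -0.56). The median of tested members moved to -0.41 in WT without WT LPS A, to -0.37 in KO without KO untreated B, and to -0.64 in WT with a filter at 5 RPKM. Of the 11272 loci tested, 68.7% had one in WT (median -0.25) and 72% in KO (median -0.28). The deposited scaling therefore puts the typical locus at a small decrease. With median-ratio scaling, which sets the median of all loci at 0 in WT and -0.02 in KO, 19 of 36 members were lower in WT (median -0.03) and 29 in KO (median -0.22). Members whose sign in WT turned positive with that scaling were Ccnd1, Ccnd3, Ccne2, Cdkn1b, Cdc6, Mcm5, Pcna, Rrm2, Ccnb2 and Aurka, and in KO they were Ccne1 and Pcna. In whole preparations, fewer cells of a type and less RNA per cell cannot be told apart.

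Among the CDK inhibitors, Cdkn1a and Cdkn2c moved in opposite directions. Cdkn1a encodes p21, which binds and blocks cyclin-kinase complexes and is a textbook target of p53 (mm9 chromosome 17, 29227924 to 29237667, plus strand). Its level was 46.2 and 34.9 RPKM untreated against 119 and 131 after LPS in WT, and 44.7 and 26.1 against 179 and 160.2 in KO. Every LPS library lay above every untreated one. The mean rose 3.09-fold in WT, from 40.6 ± 7.98 to 125 ± 8.49 RPKM (SD, n = 2), and 4.79-fold in KO, from 35.4 ± 13.2 to 169.8 ± 13.6 RPKM. The log2 change was 1.62 in WT (SE 0.28, limma adjusted p = 0.0243) and 2.28 in KO (SE 0.28, adjusted p = 0.0113). The call in WT was lost without WT untreated A (adjusted p = 0.104), WT untreated B (0.126) or WT LPS B (0.139), and the call in KO without KO LPS A (0.065) or KO LPS B (0.0977), while the log2 change stayed between 1.42 and 2.36.

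Cdkn2c encodes p18, an INK4 protein that blocks the kinases of the D cyclins (chromosome 4, 109333481 to 109339794, minus strand). Its level was 7.70 and 8.26 RPKM in untreated WT cells and 1.45 and 1.16 after LPS, and 5.23 and 11.6 in untreated KO cells and 2.26 and 1.68 after LPS. The untreated and LPS libraries did not overlap in either genotype. Its mean was 6.11 times higher without LPS in WT and 4.28 times higher in KO. The log2 change was -1.96 in WT (SE 0.34, adjusted p = 0.0237) and -1.59 in KO (SE 0.34, adjusted p = 0.0394). Estimated reads behind the LPS values were 20.1 to 57.7. The call in WT was lost without WT untreated A (adjusted p = 0.137), WT untreated B (0.112) or WT LPS B (0.136). In KO it was lost without WT untreated A (0.0712) or B (0.0717), KO LPS A (0.11) or B (0.254), or KO untreated B (0.104), with log2 changes between -1.08 and -1.73.

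The inhibitor Cdkn1b, which encodes p27 and is high in many resting cells, was not called. It lay at 18.4 and 17.1 RPKM untreated against 16.6 and 15.3 after LPS in WT, and 16.3 and 38.9 against 12.9 and 17.7 in KO. The high value belonged to KO untreated B alone. That library had the highest summed markers of B cells (1788 RPKM), mast cells (169.8) and T and NK cells (105.1). KO LPS A, with the next highest B cell sum (1437 RPKM), had the lowest Cdkn1b (12.9). The part of any of these cells in the Cdkn1b values was not tested. Within each library, Cdkn1a stood 2.24 to 8.55 times above Cdkn2c in RPKM without LPS and 79.5 to 112.9 times above it with LPS. This ratio sets the inhibitor called higher against the one called lower, so its difference between untreated and LPS-treated libraries restates those calls.

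**Figure D2:**
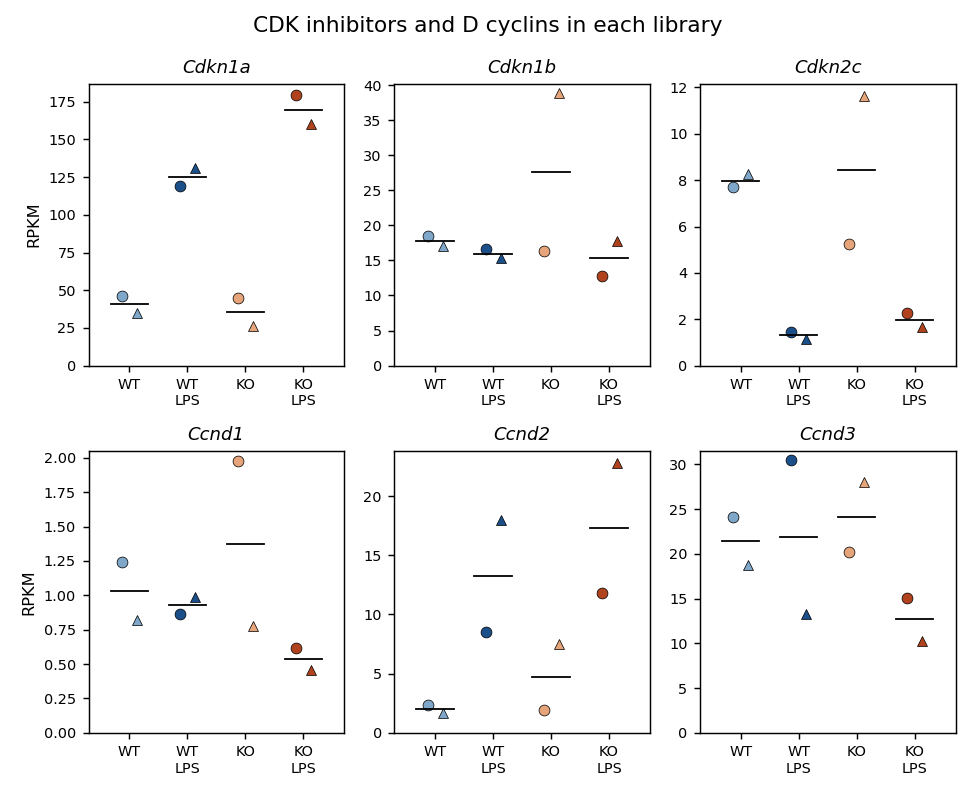
RPKM of 3 CDK inhibitors and 3 D cyclins in the 4 groups, with each library a point (circle A, triangle B) and a line at the group mean; every vertical axis is linear from 0. Cdkn1a and Ccnd2 are higher in all LPS libraries of a genotype and Cdkn2c is lower, while Ccnd1 and Ccnd3 overlap between treatments in WT and Cdkn1b in KO.

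The 3 D cyclins, which partner CDK4 and CDK6 at the start of the cycle, differed in level and in direction. Ccnd2 lay at 2.37 and 1.65 RPKM in untreated WT cells and 8.54 and 18.0 after LPS, and 1.94 and 7.52 in untreated KO cells and 11.8 and 22.8 after LPS. The LPS libraries were the higher ones in each genotype without overlap. The log2 change of 2.17 in WT (SE 0.57, adjusted p = 0.0641) and 1.80 in KO (SE 0.57, adjusted p = 0.0945) did not pass. With the replicate block both passed (adjusted p = 0.0168 in WT and 0.0324 in KO), and the one in WT passed without WT LPS A (0.0429), KO untreated A (0.0423) or KO untreated B (0.0429). The highest untreated value came from KO untreated B, where B cell markers summed to 1788 RPKM against 591 to 649 in the other untreated libraries. From untreated to LPS, the B cell sum went from 649 to 630 in WT A, 592 to 429 in WT B, 591 to 1437 in KO A and 1788 to 1041 in KO B. The part of B cells in the Ccnd2 values was not tested.

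Ccnd3 lay between 10.2 and 30.5 RPKM, above Ccnd2 in every untreated library, and Ccnd1 between 0.453 and 1.97. Neither was called, and the exons of both overlap a neighbouring gene (Bysl and Oraov1), whose reads could not be kept apart unless strand was used in the counting, which is not stated. Ccne1, which brings CDK2 into action at the start of S phase, lay between 2.32 and 5.73 RPKM and was not called. Its kinase partner Cdk2 lay at 15.9 and 14.6 RPKM untreated against 13.2 and 7.57 after LPS in WT, and 16.8 and 20.1 against 9.04 and 8.22 in KO. Every LPS library of a genotype was below its untreated libraries. The log2 change of Cdk2 was -0.56 in WT (SE 0.27, adjusted p = 0.209) and -1.01 in KO (SE 0.27, adjusted p = 0.0647). With the replicate block the KO value passed (adjusted p = 0.0439), as it did without WT LPS A (0.0236) or WT LPS B (0.0233). Of the 5 tested members of this role, 0 were called in either genotype, where 3.14% to 3.31% of all loci were called in each direction.

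None of the S phase members was called with LPS, though their log2 changes were negative throughout with the deposited scaling. The 11 genes of this role comprise E2f1, the factors Cdc6 and Cdt1 that load the replicative helicase, its subunits Mcm2 to Mcm7, the helicase cofactor Cdc45, and Pcna. All 11 had a negative log2 change in WT (tested median -0.73) and in KO (tested median -0.64), beside -0.25 and -0.28 for all loci, and 0 of the 10 tested were called. At an unadjusted p under 0.05, 6 of 10 were lower in WT and 6 in KO, where 20.7% and 21.1% of all loci were. With median-ratio scaling 8 of 11 were lower in WT, all but Cdc6, Mcm5 and Pcna, and 10 in KO, all but Pcna. The summed level of Mcm2 to Mcm7 was 44.0 and 41.2 RPKM in untreated WT cells and 28.6 and 20.3 after LPS, and 43.9 and 51.3 in untreated KO cells and 25.1 and 28.9 after LPS. The MCM sum thus separated treated from untreated libraries without overlap.

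Among single subunits, Mcm3 was the most abundant in every library, at 14.2 and 13.8 RPKM untreated against 10.1 and 5.73 after LPS in WT, and 15.9 and 13.4 against 6.28 and 7.28 in KO. No LPS library of Mcm3 reached an untreated one of its genotype. The log2 change was -0.80 in WT (SE 0.27, adjusted p = 0.105) and -1.01 in KO (SE 0.27, adjusted p = 0.0651). The KO value passed with the replicate block (adjusted p = 0.0431) and without WT LPS A (0.0241) or WT LPS B (0.0235). The other subunits of this ring-shaped helicase were less abundant. Mcm6 lay at 9.24 and 6.73 RPKM in untreated WT cells and 4.88 and 3.31 after LPS, and 8.15 and 8.16 in untreated KO cells and 5.85 and 3.30 after LPS (log2 changes -0.82 and -0.75, not called). Mcm2 had 4.56 and 4.17 RPKM untreated against 2.82 and 1.58 after LPS in WT, and 5.40 and 6.99 against 2.52 and 4.18 in KO. Mcm4 had 6.29 and 7.16 RPKM in untreated WT cells and 4.45 and 4.43 after LPS, and 6.32 and 8.40 in untreated KO cells and 3.85 and 5.52 after LPS. In Mcm2, Mcm4 and Mcm6, too, no LPS library reached an untreated one of its genotype. Mcm5 (1.49 to 3.38 RPKM) and Mcm7 (3.60 to 11.0 RPKM) were not called, and the exons of Mcm7 overlap those of Cops6, Ap4m1 and 2 microRNA genes, Mir25 and Mir93.

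The helicase loader Cdt1 lay at 12.8 and 9.83 RPKM untreated against 7.57 and 5.36 after LPS in WT, and 13.8 and 12.2 against 6.83 and 8.24 in KO. The activator E2f1 lay at 8.54 and 9.76 RPKM in untreated WT cells and 6.50 and 3.85 after LPS, and 9.09 and 5.88 in untreated KO cells and 4.23 and 2.63 after LPS. Cdc45 lay at 2.32 and 1.17 RPKM untreated against 0.942 and 0.925 after LPS in WT, and 1.12 and 2.32 against 0.642 and 0.971 in KO, and its exons overlap Ufd1l. The libraries of each of these genes were lower with LPS without overlap, and none was called (adjusted p from 0.101 to 0.356). Pcna differed from them. It lay at 142 and 111 RPKM in untreated WT cells and 126 and 100.2 after LPS, and 194 and 117 in untreated KO cells and 156 and 128 after LPS, with overlap in both genotypes and log2 changes of -0.16 (SE 0.29) and -0.09 (SE 0.29). Its level was above the sum of the 6 MCM subunits in every library.

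**Figure D3:**
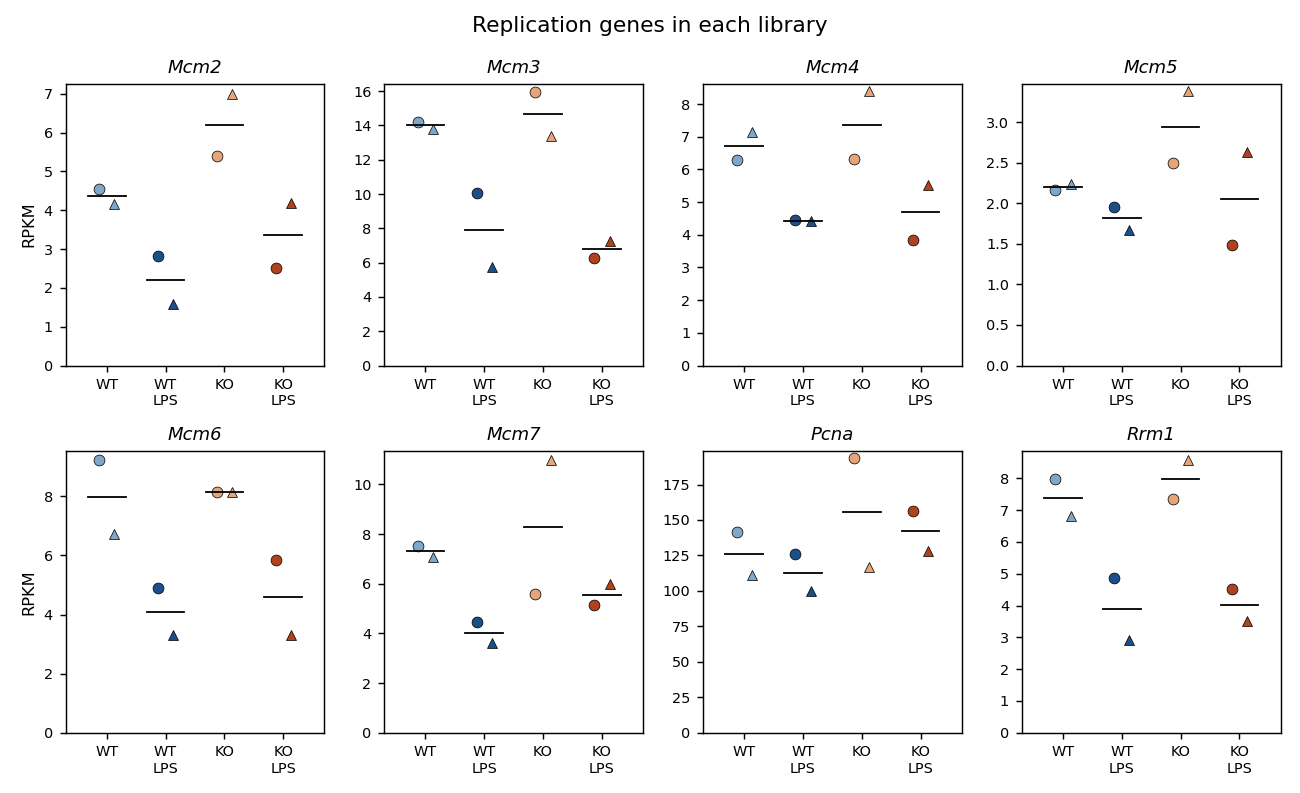
RPKM of Mcm2 to Mcm7, Pcna and the ribonucleotide reductase subunit Rrm1 in the 4 groups, with each library a point (circle A, triangle B), a line at the group mean and linear axes from 0. In Mcm2, Mcm3, Mcm4, Mcm6 and Rrm1 the LPS libraries lie below the untreated ones of the same genotype, while those of Pcna overlap.

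Genes that supply nucleotides did not share a direction. Rrm1, the large subunit of ribonucleotide reductase, lay at 7.97 and 6.82 RPKM untreated against 4.85 and 2.91 after LPS in WT, and 7.36 and 8.58 against 4.51 and 3.52 in KO (log2 changes -0.81 with adjusted p = 0.097 and -0.84 with adjusted p = 0.09). Its S phase partner subunit Rrm2 was scarce, at 0.404 to 1.47 RPKM, and was not called. Thymidylate synthase, Tyms, lay at 2.05 and 2.32 RPKM in untreated WT cells and 3.50 and 4.35 after LPS, and 2.19 and 2.79 in untreated KO cells and 3.06 and 3.59 after LPS. The LPS libraries of Tyms were higher without overlap in both genotypes, opposite to Rrm1, but it was not called (adjusted p = 0.119 and 0.364). The exons of Tyms overlap the predicted gene Gm17448.

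Across all 36 members, 14 had LPS libraries below the untreated ones without overlap in both genotypes, which is 38.9% of the members and 43.8% of the 32 tested, where 34.6% of all loci tested did. Higher without overlap in both genotypes were 4 members, Cdkn1a, Ccnd2, Tyms and Mki67, which is 11.1% of the members and 12.5% of those tested, where 11.1% of all loci tested were. The lower ones were Cdk2, Cdkn2c, E2f1, Cdt1, Cdc45, Mcm2, Mcm3, Mcm4, Mcm6, Rrm1, Ccnb1, Cdk1, Aurkb and Bub1b.

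The mitotic genes were scarce in all libraries. The 11 mitotic cyclins, kinases and checkpoint genes and Top2a, the topoisomerase that untangles sister DNA, ranged from 0.043 to 4.69 RPKM, and the 12 together summed to 18.2 and 17.6 RPKM untreated against 11.6 in both libraries after LPS in WT, and to 15.6 and 20.0 against 7.77 and 11.8 in KO. The sum was lower in every LPS library than in any untreated one. Ccnb1, the cyclin that drives entry into mitosis, lay at 1.57 and 1.03 RPKM untreated against 0.271 and 0.498 after LPS in WT, and 1.36 and 0.801 against 0.294 and 0.360 in KO. Its kinase Cdk1 lay at 1.72 and 1.57 RPKM in untreated WT cells and 1.02 and 1.39 after LPS, and 0.986 and 1.91 in untreated KO cells and 0.701 and 0.449 after LPS. Neither was called, and an estimated 7.6 to 8.6 reads stood behind the LPS values of Ccnb1.

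Aurkb, the kinase that corrects faulty chromosome attachment, lay at 3.02 and 2.72 RPKM untreated against 1.35 and 0.824 after LPS in WT, and 2.29 and 4.69 against 1.52 and 1.73 in KO. The spindle checkpoint gene Bub1b lay at 2.13 and 4.08 RPKM in untreated WT cells and 0.803 and 0.493 after LPS, and 2.30 and 1.88 in untreated KO cells and 0.563 and 1.07 after LPS. Both were lower with LPS without overlap. Bub1b had a log2 change of -1.28 in WT (SE 0.31, adjusted p = 0.0531), which passed with the replicate block (adjusted p = 0.0358), and of -0.78 in KO (SE 0.31, adjusted p = 0.147). The remaining members of these roles were not called and overlapped in at least 1 genotype: Ccna2 (0.876 to 2.23 RPKM), Ccnb2 (0.464 to 1.54), Aurka (0.384 to 1.33), the mitotic exit factor Cdc20 (0.618 to 1.13) and the survivin gene Birc5 (0.370 to 1.26). Exons of Ccna2 and Cdc20 overlap Exosc9 and Elovl1.

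Mki67 stood apart from all of these. It encodes Ki-67, a protein that coats mitotic chromosomes and is widely stained to count cycling cells (mm9 chromosome 7, 142881471 to 142908062, minus strand). Its level was 6.05 and 29.3 RPKM untreated against 71.4 and 119.7 after LPS in WT, and 3.34 and 9.46 against 67.3 and 95.1 in KO. Every LPS library lay above every untreated one, but the WT untreated libraries differed widely from each other. The mean was 5.41 times higher with LPS in WT (17.7 ± 16.4 and 95.6 ± 34.1 RPKM, SD, n = 2) and 12.7 times higher in KO (6.40 ± 4.33 and 81.2 ± 19.7 RPKM). In KO the log2 change of 3.59 (SE 0.70, adjusted p = 0.0323) passed and was the highest of the members, at rank 59 from the top of 11272 loci.

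In WT the log2 change of Mki67 was 2.68 (SE 0.70, adjusted p = 0.0645), at rank 131, and did not pass. It passed with the replicate block (adjusted p = 0.00651; 0.00304 in KO), and without WT untreated B, when it was 3.73 (adjusted p = 0.0491). Without WT untreated A it was 1.63. The KO call was lost without KO untreated A (2.95, adjusted p = 0.0933), its letter B partner (4.22, 0.0748), KO LPS A (3.83, 0.0942) or KO LPS B (3.34, 0.208). An estimated 483.1 to 3116 reads stood behind the untreated values and 7012 to 8414 behind the LPS values, so counting error is small in each library. Within every group library B had more Mki67 than library A, and the summed levels of mast cell, neutrophil and T and NK cell markers followed the letters as well. The sum of 8 of 9 neutrophil markers was also higher with LPS without overlap, at 40.1 and 68.1 RPKM untreated and 121.9 and 134.5 after LPS in WT, and 43.6 and 49.7 untreated and 79.7 and 133.5 after LPS in KO. S100a8 made up most of that sum (39.8 to 120.8 RPKM), Camp went from 0 to 3.72 RPKM untreated to 9.83 to 27.5 with LPS, and Ngp was at 0 in all libraries. The markers did not share a direction. Of the 8 found, 2 had a negative log2 change in WT (median 0) and 4 in KO (median -0.05). Of the 3 tested, 1 was lower in each genotype. The sum of 7 of 7 mast cell markers was 0.961 and 74.3 RPKM untreated and 25.6 and 88.4 after LPS in WT, and 0.304 and 169.8 untreated and 3.10 and 72.9 after LPS in KO. For 10 of 11 T and NK cell markers it was 25.2 and 39.7 untreated and 21.7 and 27.9 after LPS in WT, and 21.0 and 105.1 untreated and 46.8 and 62.6 after LPS in KO. The mast cell and the T and NK cell sums overlapped between treatments in both genotypes. The part of any of these cells in the Mki67 values was not tested. With deposited, median-ratio and quantile scaling its direction was the same.

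Top2a, which is commonly read beside Mki67 as a mark of dividing cells, did not follow it. It lay at 3.05 and 2.29 RPKM in untreated WT cells and 1.70 and 2.47 after LPS, and 2.18 and 3.06 in untreated KO cells and 1.12 and 2.62 after LPS. The groups overlapped, and the log2 changes were -0.25 (SE 0.32) and -0.38 (SE 0.32). Mki67 was 1.53 to 12.8 times Top2a in the untreated libraries and 36.3 to 60.4 times Top2a with LPS. Against the summed level of those 12 genes, Mki67 amounted to 0.214 to 1.66 times that sum without LPS and 6.18 to 10.3 times with LPS. The ratio of Mki67 to the other mitotic transcripts was thus higher in every LPS library than in any untreated one, although within KO the library with more Mki67 also had the higher mitotic sum.

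**Figure D4:**
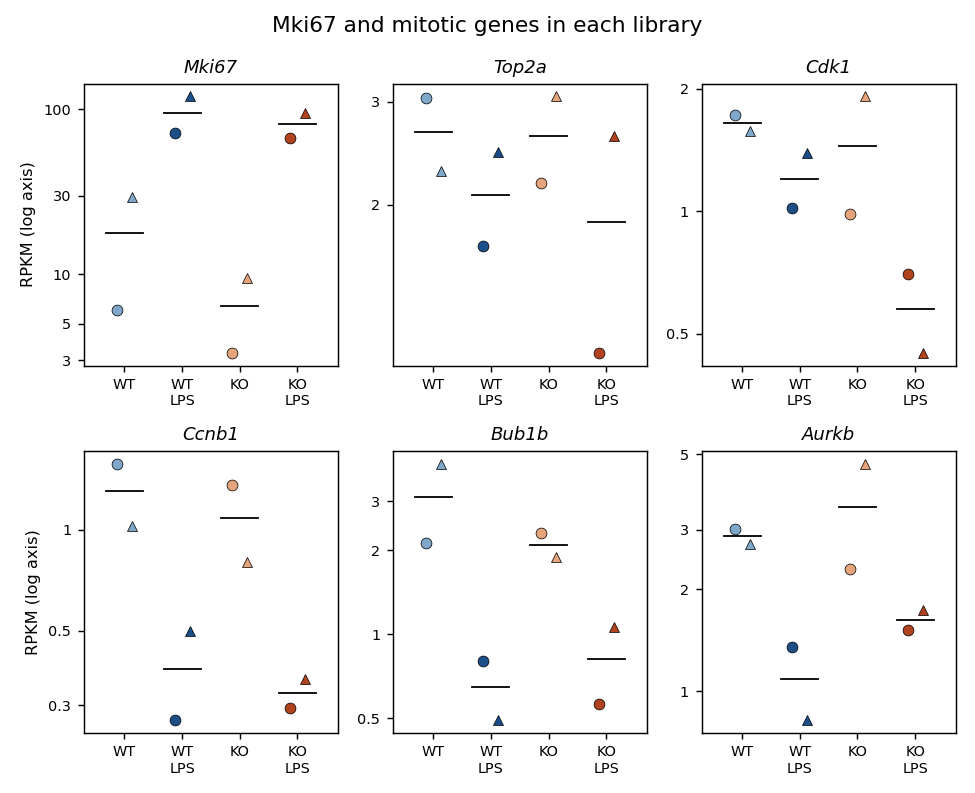
RPKM of Mki67, Top2a and 4 mitotic genes in the 4 groups on log axes whose ranges differ between panels, with each library a point (circle A, triangle B) and a line at the group mean. Mki67 is higher in every LPS library, while Cdk1, Ccnb1, Bub1b and Aurkb are lower with LPS in each genotype and Top2a overlaps.

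Nothing annotated overlaps Mki67. Its nearest neighbour is Ptpre, a phosphatase gene on the opposite strand whose end lies 3.49 kb from that of Mki67, and the next gene on the other side is 793 kb away. Ptpre lay at 32.8 and 41.3 RPKM untreated against 43.5 and 44.0 after LPS in WT, and 38.2 and 21.7 against 56.1 and 53.4 in KO. It was higher with LPS in every library of a genotype but changed far less in fold than Mki67. This neighbour was chosen after the values were seen, and its part in the Mki67 value was not tested.

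The promoters of the mitotic genes carry a known pair of elements, the CHR and the CCAAT box, through which repressor and activator complexes time their expression, while promoters of replication genes often carry E2F sites. The 250 bases before the annotated start are printed here for Mki67, for Top2a and Cdk1, which did not rise with it, and for the helicase subunit Mcm6, to let these elements be seen side by side. They are RefSeq sequences of the GRCm38.p6 build, 5′ to 3′ on the strand of the gene. Capitals mark every match on either strand to TTTGAA or TTCGAA (CHR), CCAAT, and TTTCCCGC or TTTGGCGC (E2F); none of these motifs contains another. The regions are chr7:135716380-135716629 for Mki67, chr11:99024190-99024439 for Top2a, chr10:69352913-69353162 for Cdk1 and chr1:128359706-128359955 for Mcm6, all on the minus strand.
Mki67: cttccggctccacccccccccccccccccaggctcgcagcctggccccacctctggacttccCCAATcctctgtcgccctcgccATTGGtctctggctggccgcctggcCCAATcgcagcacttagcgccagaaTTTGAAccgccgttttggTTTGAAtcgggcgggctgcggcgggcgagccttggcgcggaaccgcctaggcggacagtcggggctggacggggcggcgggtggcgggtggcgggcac
Top2a: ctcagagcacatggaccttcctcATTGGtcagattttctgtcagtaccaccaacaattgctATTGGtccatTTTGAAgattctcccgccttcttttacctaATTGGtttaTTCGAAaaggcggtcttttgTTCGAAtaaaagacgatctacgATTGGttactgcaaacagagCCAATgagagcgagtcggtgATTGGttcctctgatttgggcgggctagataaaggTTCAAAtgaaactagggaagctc
Cdk1: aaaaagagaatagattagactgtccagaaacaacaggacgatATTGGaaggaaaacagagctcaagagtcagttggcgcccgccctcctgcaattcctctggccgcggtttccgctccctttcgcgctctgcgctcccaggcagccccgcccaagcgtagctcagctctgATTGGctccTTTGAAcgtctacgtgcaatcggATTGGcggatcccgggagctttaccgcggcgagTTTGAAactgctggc
Mcm6: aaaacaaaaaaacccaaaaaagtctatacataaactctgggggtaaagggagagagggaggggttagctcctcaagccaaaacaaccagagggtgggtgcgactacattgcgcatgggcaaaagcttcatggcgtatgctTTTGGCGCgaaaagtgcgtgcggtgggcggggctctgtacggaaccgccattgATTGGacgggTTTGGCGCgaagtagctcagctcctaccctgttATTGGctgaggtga

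The Mki67 stretch holds 2 matches to TTTGAA and 3 to CCAAT, which is the same count as in Cdk1, and Top2a holds 2 to TTTGAA, 2 to TTCGAA and 6 to CCAAT. Mcm6 holds 2 matches to TTTGGCGC and 2 to CCAAT. Over the whole table, windows of 300 bases (250 before and 50 after the start) were searched, and 30 of the 36 members had one. Unmatched were Ccnd1, Ccnd2, Ccne2, Mcm4, Ccna2 and Aurkb. A CHR match of either form together with a CCAAT match was found in 9 of 11 mitotic members with a window (Top2a and Mki67 included), namely Aurka, Bub1, Bub1b, Ccnb2, Cdc20, Cdk1, Mki67, Plk1 and Top2a, and in 7.52% of all 32851 windows. The same pair was found in 3 of the 13 S phase and nucleotide members with a window, Cdc45, Mcm2 and Mcm7. An E2F match of either form was found in 6 of the 13 S phase and nucleotide members with a window, namely Cdc6, Cdt1, Mcm3, Mcm5, Mcm6 and Mcm7, in Cdk2 besides, in 0 of the 11 mitotic members, and in 1.56% of all windows. By single motif, TTTCCCGC was found in 4 members (1.07% of all windows), TTTGGCGC in 4 (0.514%), TTTGAA in 10 (17.9%), TTCGAA in 4 (1.56%) and CCAAT in 23 (37.4%). A match describes the letters only. Of the 8 other mitotic members with CHR and CCAAT matches, Cdk1 and Bub1b were lower with LPS without overlap in both genotypes. Of all loci tested, 34.6% were. Without the replicate block 0 of the 6 tested were called, where 3.14% to 3.31% of all loci were called in each direction.

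Other genes of the same pathways, from lists of related genes, were read from the same fit. Of 38 tested genes of replication and S phase outside the members, 0 were called higher and 3 lower in WT, and 0 higher and 6 lower in KO, where 3.14% and 3.31% of all loci were called lower. With the replicate block 5 were lower in WT and 9 in KO, where 10.4% and 9.04% of all loci were. The medians of these genes were -0.56 and -0.63, beside -0.25 and -0.28 for all loci. Called in both genotypes were the licensing inhibitor Gmnn (-1.99 in WT and -2.38 in KO), the polymerase subunit Pole2 (-1.22 and -1.63) and the clamp loader subunit Rfc5 (-1.02 in WT), and among those called in KO were its partners Rfc2 (-1.13) and Rfc1 (-1.08). Gmnn lay at 17.2 and 19.7 RPKM in untreated WT cells and 6.86 and 2.04 after LPS, and 16.6 and 17.6 in untreated KO cells and 2.06 and 2.94 after LPS. Of these genes 36 of 38 had a negative log2 change in each genotype, beside 68.7% and 72% of all loci. With median-ratio scaling, 34 of all 46 on the list were lower in each genotype (medians -0.21 and -0.29).

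Of 26 tested genes of mitosis outside the members, 1 was called higher and 3 lower in WT, and 1 higher and 2 lower in KO, with medians of -0.50 and -0.59. Of all loci, 3.17% were called higher and 3.14% lower in WT, and 3.31% in each direction in KO. With the replicate block 1 was higher and 6 lower in WT, and 2 higher and 4 lower in KO, where 5.71% and 10.4% of all loci were in WT and 5.25% and 9.04% in KO. The phosphatase gene Cdc25b, which activates CDK1, fell by 1.92 on the log2 scale in WT and by 1.51 in KO, and the centromeric histone Cenpa fell by 1.15 in WT and fell by 1.25 in KO. Spc25, a kinetochore gene, fell by 1.39 in WT. The spindle gene Ckap2l was the exception and rose (3.15 in WT and 3.17 in KO). It went from 0.425 and 0.444 RPKM to 5.16 and 25.2 in WT, and from 0.327 and 0.412 to 9.50 and 13.4 in KO. It lies on chromosome 2, 2.40 kb from the cytokine gene Il1a on the same strand. Il1a went from 15.8 and 51.0 RPKM to 979.9 and 5148 in WT, and from 22.6 and 15.6 to 2358 and 5368 in KO, and its part in the Ckap2l value was not tested.

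Few regulators of G1 were called. Of 31 tested, 0 were called in WT in either direction, and in KO 1 was called higher, the INK4 inhibitor gene Cdkn2b (2.44, adjusted p = 0.0243), and 0 lower, where 3.31% of all loci were called in each direction; the medians were -0.23 and -0.25. Of all loci, 3.17% were called higher and 3.14% lower in WT. The replicate block called 5.71% of all loci higher and 10.4% lower in WT, and 5.25% and 9.04% in KO. Of these regulators it called 1 higher and 2 lower in WT, and 2 higher and 1 lower in KO. In WT the largest changes among them were those of Cdk4, the kinase of the D cyclins (-1.02, adjusted p = 0.073, and 0.0122 with the replicate block), and of E2f5 (0.98, adjusted p = 0.0558, and 0.042 with the block); at an unadjusted p under 0.05, 7 of the 31 differed, where 29.3% of all loci did. Cdkn2b lay at 6.19 and 15.4 RPKM untreated against 14.8 and 24.7 after LPS in WT, and 7.67 and 4.98 against 41.0 and 35.4 in KO. Its libraries overlapped in WT and not in KO; whether the response differed is given by the interaction test, in which 0 genes of this list were called.

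Calls among textbook p53 targets other than Cdkn1a went in both directions in KO. Of 23 tested, 1 was called higher and 0 lower in WT, the stress-induced Sesn2 (1.47), and 3 higher and 1 lower in KO, with medians of -0.11 and 0.03. Of all loci, 3.17% were called higher and 3.14% lower in WT, and 3.31% in each direction in KO. With the replicate block 2 were higher and 1 lower in WT, where 5.71% of all loci were higher and 10.4% lower. The block called 6 higher and 3 lower in KO, where 5.25% of all loci were higher and 9.04% lower. In KO, Gdf15 (3.64), Plk2 (2.34) and Sesn2 (1.61) rose, and Sesn1 fell by 1.95.

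The second comparison set KO against WT. No member was called between the genotypes. Of 32 tested members, 0 were called without LPS, with LPS, averaged over treatments or in the interaction, where 0.0266%, 0.00887%, 0.0355% and 0.0355% of all loci were called by limma. At an unadjusted p under 0.05 the count was also 0 in each, where 94, 498, 472 and 184 of the 11272 loci lay under it. With the replicate block 0 members were called. Of all loci, the block called 1 higher and 2 lower without LPS, and 0 and 1 with LPS. It called 1 and 3 averaged over treatments, and 2 and 2 in the interaction. Without LPS the differences ran from -1.12 for Mki67 (95% interval -2.76 to 0.52) to 0.74 for Ccnd2 (-0.58 to 2.07), and with LPS from -0.66 for Ccnd3 (-1.58 to 0.27) to 0.52 for Ccne1 (-0.14 to 1.17). These intervals are wide with 2 libraries per group, and true differences anywhere within them remain compatible with the values.

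The interaction asks whether the LPS response of the libraries labelled KO differed from that of WT. The log2 difference in response was 0.66 for Cdkn1a (95% interval -0.27 to 1.59), 0.91 for Mki67 (-1.41 to 3.23), 0.38 for Cdkn2c (-0.74 to 1.50) and -0.37 for Ccnd2 (-2.24 to 1.51), with limma adjusted p = 1 for each. Cdkn1a was lower in KO than in WT in both letters without LPS (KO minus WT -1.5 RPKM in A and -8.82 in B). With LPS it was higher in both (60.0 and 28.8). Tyms and Cdc20 went the other way, higher in KO in both letters without LPS and lower in both with LPS. In the untreated libraries the genotypes overlapped for Cdkn1a, Tyms and Cdc20. These genes were picked from all members by this pattern, and the share of all loci with such a reversal was not computed. The passing of Mki67 in KO and not in WT is therefore no measured difference between the genotypes.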

How the data were processed

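RNA-seq libraries of 4 groups of 2 were analysed from 1 table of RPKM, which the authors computed and deposited. Per the submitters' processing notes, bcl2fastq, TopHat2 2.0.14 and Cufflinks 2.2.1 were used with mm9; the sources used here do not give the annotation, strand or read layout. The 24192 lines were reduced to 23735 loci. Library depth came from the smallest differences among low RPKM (93.1% of 3006 low loci were whole multiples, within 0.1 read plus 0.02 per read) and from 762 genes with 1 GENCODE vM1 transcript (quartiles for the deepest library 13.5 and 14.8 M). Gene positions come from the same annotation. The 11272 loci reaching 1 RPKM in 2 or more libraries were fitted as log2(RPKM + 1) in R 4.3.3 with limma 3.58.1, with 1 mean per group, a variance trend, two-sided tests and Benjamini-Hochberg adjustment over all loci, called at 0.05. A log2 change on this scale understates that of low genes. The script was tested on simulated data.

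The members and the lists of related genes were chosen with earlier results of these data known. Every member is named; called members and those without overlap in both genotypes are given in every library, and from each related list up to 4 called genes, or 2 uncalled where none was called. A list of growth arrest genes is not reported here. Deviations from group means correlated by letter in all 6 pairs of groups (r from 0.20 to 0.41). The letters may therefore pair libraries, although their meaning is not stated. The main fit behind the reported calls did not use the letters, and among the fits only the replicate block did. Alternatives were a pseudocount of 0.1, no filter, a filter at 5 RPKM, median-ratio and quantile scaling, no variance trend, the replicate block and leaving out each library. Figures were made in Python 3.11.15 with matplotlib 3.10.9.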

Additional observations from a re-analysis of the deposited data

Results flagged for a closer look

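Plk1, the mitotic kinase, moved in opposite directions in the genotypes after LPS when libraries of the same letter were set against each other. It was higher with LPS in both WT pairs (0.519 to 0.614 RPKM in A and 0.347 to 0.657 in B) and lower in both KO pairs (0.383 to 0.0887 in A and 0.665 to 0.434 in B). The difference in response was -0.47 on the log2(RPKM + 1) scale. It was not tested, because Plk1 lay under the filter, and an estimated 2.0 to 15.1 reads stood behind each value.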

How the results depend on the processing

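The number of members called in WT was 2 as reported, 0 without a filter on low values, 5 with the replicate block and 0 to 7 when 1 library was left out (7 without WT LPS A, 1 without WT untreated B, and 0 when WT untreated A or WT LPS B was dropped). In KO it was 3 as reported, 1 without a filter, 6 with the block and 0 to 6 when 1 library was left out (6 when either WT LPS library was dropped, 1 for KO untreated B and 0 for either KO LPS library). The members called with the block are given beside their results, and it changed no other call of a member. Without a filter, the adjusted p was 0.0526 for Cdkn1a in WT, 0.0571 and 0.0854 for Cdkn2c in WT and KO, and 0.0724 for Mki67 in KO; Bub1b in WT passed with variances fitted without a trend (0.0473). Counts over all loci moved too. In WT 711 loci were called, 270 without a filter, 1818 with the block and 7 to 2244 with 1 library left out, and in KO 746, 262, 1611 and 20 to 1554. KO against WT with LPS gave 0 to 6 loci over the alternatives, KO against WT untreated 2 to 4, the average over treatments 0 to 6 and the interaction 0 to 7. The cause of these shifts was not tested. When 1 library was left out, the lone library of its group was assumed to vary like the others. The log2 changes after LPS of Cdkn1a, Cdkn2c, Mki67 and Ccnd2 in both genotypes, of Bub1b in WT, and of Mcm3 and Cdk2 in KO kept their sign under every alternative that gave a value. The low mitotic members rest on few reads, so small changes in them were not detectable at this depth.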
